A study of Mus musculus with 6 samples.

Results

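The 9 genes described here encode the cytoskeleton that is typical of neurons. They are the neurofilament genes Nefl, Nefm and Nefh, the related intermediate filament genes Prph and Ina, the tubulin gene Tubb3, the microtubule-associated protein gene Map2, and the stathmin genes Stmn2 and Stmn3. They were chosen by name and matched by Ensembl gene identifier, which found all 9 among the 54532 gene rows of the table. The RNA came from whole dorsal root ganglia, where the somata of sensory neurons lie next to the cord, of C57BL/6 mice aged 8 weeks, and was read by bulk RNA-seq. One group of 3 libraries (Hdac2 cKO, genotype Adv-Cre+/hdac2-flop++) carried floxed Hdac2 and a Cre recombinase under the promoter of Advillin, a gene of peripheral sensory neurons. The other group of 3 libraries (WT, genotype hdac2-flop++) carried floxed Hdac2 without Cre, so that the presence of Cre also differed between the groups. The labels leave unsaid whether a library holds 1 mouse or several, and p-values measure only the spread between these libraries. Values of a group are listed in the order of the replicate numbers 1, 2 and 3 throughout.

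Neurofilaments are the intermediate filaments of axons. They are built from a light, a medium and a heavy subunit (encoded by Nefl, Nefm and Nefh) with either α-internexin (Ina) or peripherin (Prph), and they set the calibre of large myelinated axons. In sensory ganglia, heavy neurofilament is used as a mark of large myelinated neurons, and peripherin as a mark of small unmyelinated ones. Microtubules, built of α- and β-tubulin, are the tracks of axonal transport. Map2 stabilises them in the cell body and dendrites, and stathmins bind free tubulin and promote disassembly.

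Values are normalised read counts, meaning reads divided by a size factor of the library. For Hdac2, the deleted histone deacetylase, they were 2816, 1715 and 3498 (WT) against 499, 372 and 535 (Hdac2 cKO), lower in every library labelled as knockout. Library depth was 18943595 to 42070531 reads assigned to genes. Among genes with 1 to 20 reads, 42.4% had an even number of reads in WT 2, the library of lowest depth, and 60.2 to 64.4% elsewhere. Whether reads were counted in the same way in all libraries was not tested. WT 3 stood apart from all other libraries. Of 18410 genes tested, 1453 were more than 2-fold above the highest of the other libraries in WT 3 and 2676 more than 2-fold below the lowest, on the scale of value plus 1. In each of the other 5 libraries such genes numbered 35 to 123 and 93 to 264. WT 3 also had 734 genes with 1 or 2 reads, against 3521 to 3903 elsewhere. For the cytoskeleton genes, their ratios and the medians of gene lists, results that moved much without WT 3 are given with and without it below. Fold changes of single genes in the lists are given with all libraries only, also where WT 3 stood apart. Skeletal muscle markers, 8 of 9 of them tested, summed to 1598 to 8521 normalised read counts in WT and 91 to 1060 in Hdac2 cKO. The 8 myelinating Schwann cell markers summed to 234362 to 352917 in WT and 129673 to 217739 in Hdac2 cKO. The part of these other cells in the values of the cytoskeleton genes was not tested. In RNA from a whole ganglion, fewer neurons and less RNA per neuron cannot be told apart.

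None of the 9 cytoskeleton genes passed the test between Hdac2 cKO and WT. By limma, fitted on all 18410 genes, 0 of 9 had an adjusted p under 0.05, beside 0% of all genes tested. At an unadjusted p under 0.05 there were 0 of 9, beside 1.85% of all genes tested. DESeq2, which the submitters' notes name, called 0 of 9, beside 0.129% of all genes, and edgeR called 0 of 9, beside 0%. Hdac2 itself, with the smallest p of all genes, did not pass in limma either (adjusted p = 0.927), while DESeq2 called it (adjusted p = 6.37e-09). Higher in the knockout on the fitted scale were 4 members, beside 55.3% of all genes, and 5 were lower, beside 44.7%. The median log2 fold change of the members was -0.01 (Hdac2 cKO minus WT, on the log2 of value plus 1), against 0.06 over all genes tested. Without WT 3 the members' median was 0.14, against -0.01 over all genes, with 7 members higher and 2 lower. Leaving out each library in turn gave members' medians of -0.18 to 0.14. Groups did not overlap for 2 members, Map2 and Stmn2, both higher in every knockout library, beside 4.63% of all genes tested in that direction. No member was lower without overlap, beside 3.91% of all genes.

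**Figure D1:**
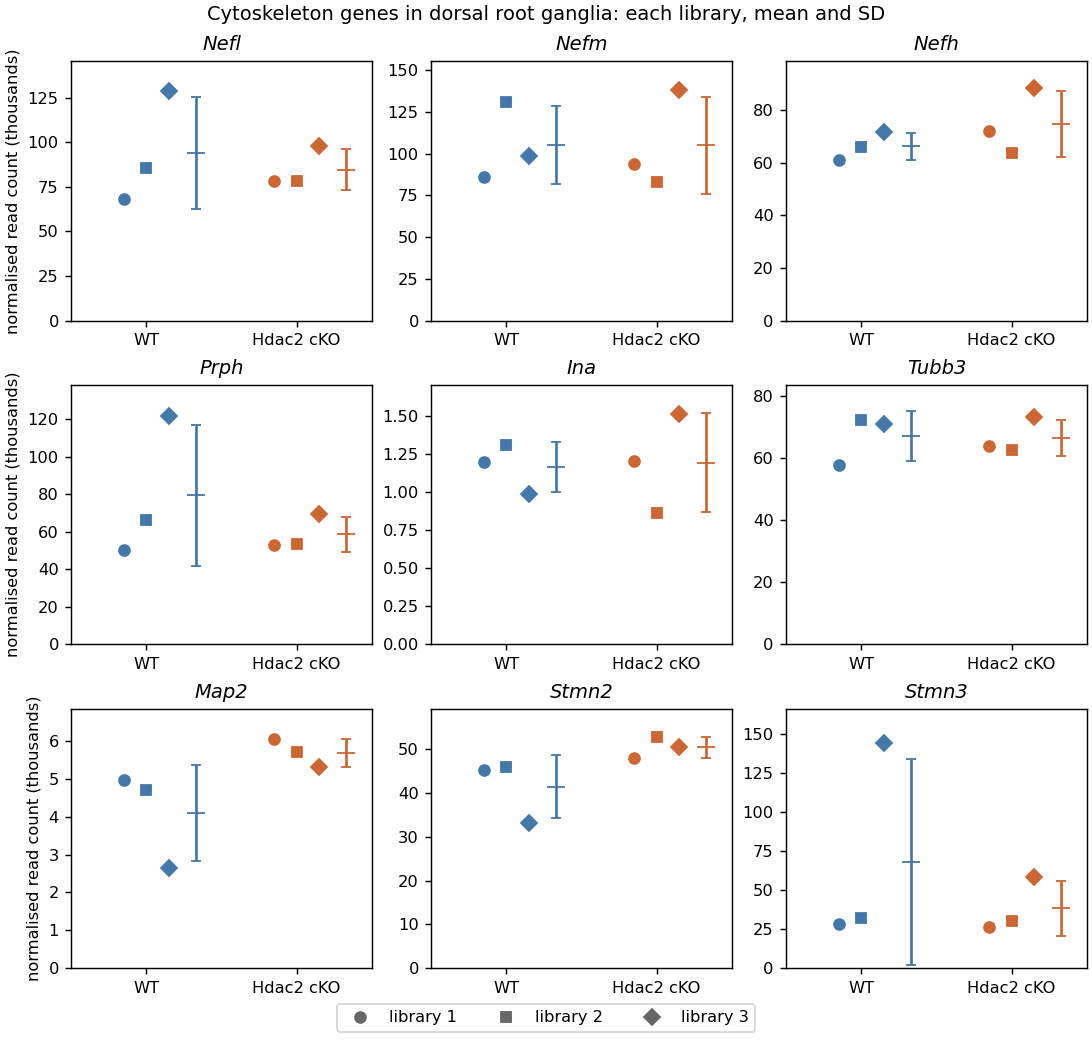
Normalised read count divided by 1000 (vertical axes, from 0, one scale per gene) of each cytoskeleton gene in the WT and Hdac2 cKO libraries; symbols are single libraries, and the dash with its bar is the mean and SD of 3 libraries. WT 3 (blue diamond) is the highest library for Nefl, Prph and Stmn3 and the lowest for Map2 and Stmn2.

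The neurofilament triplet was abundant in every library. Nefl (ENSMUSG00000022055, mm10 chromosome 14, 68083863 to 68089095, plus strand), the light subunit on which the filament is built, had WT values of 67952, 85636 and 129075. Its knockout values were 78451, 78113 and 97767. The knockout values all lay within the WT range, whose upper end was set by WT 3. The WT mean was 94221 ± 31453, and the knockout mean 84777 ± 11251 (SD, n = 3 each). The fitted log2 difference was -0.11 (SE 0.28, 95% confidence interval -0.76 to 0.54, limma adjusted p = 0.95), and 0.14 without WT 3. A ratio between 0.591 and 1.45 of the WT level was thus within the interval.

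Nefm (ENSMUSG00000022054, mm10 chromosome 14, 68082590 to 68124846, minus strand), the medium subunit, had WT values of 86047, 130907 and 98562 and knockout values of 93464, 82945 and 138077. The highest and the lowest library both belonged to the knockout. Means of 105172 ± 23149 and 104829 ± 29271 (SD, n = 3 each) differed by far less than their spread, and the fitted log2 difference was -0.02 (SE 0.27, 95% confidence interval -0.66 to 0.62, limma adjusted p = 0.991). It was 0.15 without WT 2, 0.14 with a correction for GC content and -0.46 with array weights.

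Nefl and Nefm lie on opposite strands of one locus. In the GENCODE M21 annotation, 1 gene model of Nefm runs across Nefl, and 1108 exonic bases are shared, which is 32.8% of the exonic length of Nefl and 19.2% of that of Nefm. No source used here gives the strand setting or annotation of the counting, so reads from the shared bases cannot be assigned to either gene, and both levels are uncertain to that extent.

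Nefh (ENSMUSG00000020396, mm10 chromosome 11, 4938754 to 4948064, minus strand) encodes the heavy subunit, whose long phosphorylated tail projects from the filament. Its WT values were 61198, 65954 and 71589, and its knockout values 72213, 63529 and 88318. The WT libraries lay close together, within a 1.17-fold range, WT 3 included. Of the knockout libraries 2 lay above all WT libraries and the other lay within the WT range. Means were 66247 ± 5202 and 74687 ± 12578 (SD, n = 3 each), and the log2 fold change was 0.16 (SE 0.21, 95% confidence interval -0.32 to 0.65, limma adjusted p = 0.927). Without Hdac2 cKO 3 it was 0.035, and with a correction for GC content 0.35.

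Prph (ENSMUSG00000023484, mm10 chromosome 15, 99055174 to 99058978, plus strand), peripherin, had WT values of 50195, 66547 and 121807. The knockout libraries held 53202, 53661 and 69504. WT 3 lay far above all other libraries, while WT 1 was the lowest of all, so the groups overlapped. Means were 79516 ± 37526 and 58789 ± 9282 (SD, n = 3 each). The log2 fold change of -0.35 (SE 0.34, 95% confidence interval -1.15 to 0.46, limma adjusted p = 0.927) became 0.013 without WT 3, -0.11 without both libraries numbered 3 and -0.066 with a correction for GC content.

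Ina (ENSMUSG00000034336, mm10 chromosome 19, 47014698 to 47025327, plus strand), α-internexin, is best known as a filament subunit of central neurons. It was far less abundant here, with WT values of 1196, 1310.3 and 986 and knockout values of 1202, 863 and 1511. As for Nefm, the highest and the lowest value were both from knockout libraries. Means were 1164 ± 164 and 1192 ± 324 (SD, n = 3 each), and the fitted log2 difference was 0.01 (SE 0.26, 95% confidence interval -0.61 to 0.63, limma adjusted p = 0.996). It shares 456 exonic bases, 14.1% of its exonic length, with Nt5c2 on the opposite strand. The 7 spinal cord neuron markers summed to 226 normalised read counts in WT 3 and to 78.9 to 138 elsewhere. Of these markers 2 passed the filter. The 6 central glia markers summed to 511 to 1085 per library. The part of these cells in the level of Ina was not tested.

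Tubb3 (ENSMUSG00000062380, mm10 chromosome 8, 123411424 to 123422015, plus strand), the β-tubulin isotype used as a general mark of neurons, was the steadiest member. The WT libraries held 57849, 72286 and 71069, and the knockout libraries 63711, 62527 and 73237. All libraries lay within a 1.27-fold range. Means were 67068 ± 8007 and 66491 ± 5871 (SD, n = 3 each). The log2 fold change was -0.01 (SE 0.20, 95% confidence interval -0.47 to 0.45, limma adjusted p = 0.993).

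Map2 (ENSMUSG00000015222, mm10 chromosome 1, 66175273 to 66442583, plus strand), the dendritic microtubule-associated protein, had the smallest p of the members. The WT libraries held 4965, 4702 and 2637, and the knockout libraries 6054, 5711 and 5316. Every knockout library lay above every WT library, and WT 3 lay well below the rest. Means were 4101 ± 1275 and 5694 ± 369 (SD, n = 3 each). The log2 fold change was 0.53 (SE 0.28, 95% confidence interval -0.12 to 1.17), a ratio of 1.44, and did not pass (limma adjusted p = 0.927). The exact permutation p, two-sided, was 0.1, which is the lowest possible with 3 against 3 libraries. The value was 0.23 when WT 3 was left out, and a correction for gene length gave 0.31.

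Stmn2 (ENSMUSG00000027500, mm10 chromosome 3, 8509360 to 8561606, plus strand), a stathmin of growing and regenerating axons, followed the same order. Its WT values were 45251, 46057 and 33222, and its knockout values 48003, 52956 and 50473. The groups did not overlap, though Hdac2 cKO 1 lay close to WT 2. Means were 41510.0 ± 7189 and 50477 ± 2477 (SD, n = 3 each), and the fitted log2 difference of 0.30 (SE 0.21, 95% confidence interval -0.19 to 0.78), a ratio of 1.23, did not pass (limma adjusted p = 0.927). Its exact permutation p, two-sided, was also 0.1. Without WT 3 the log2 fold change was 0.14.

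Stmn3 (ENSMUSG00000027581, mm10 chromosome 2, 181306459 to 181314500, minus strand), another neuronal stathmin, varied most. The WT libraries held 27965, 32303 and 144135, and the knockout libraries 26385, 30027 and 58300.1. Both libraries numbered 3 were above all others, and WT 3 was 5.15-fold above WT 1. It was the only member for which WT 3 lay more than 2-fold outside all other libraries. Means were 68134 ± 65854 and 38237 ± 17469.9 (SD, n = 3 each). The log2 fold change of -0.50 (SE 0.64, 95% confidence interval -2.002 to 1.01, limma adjusted p = 0.927) became 0.26 without WT 3. It was -0.095 without both libraries numbered 3 and -0.83 by DESeq2, and Stmn3 was lower in the knockout in 3 of 3 pairs of equal number.

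**Figure D2:**
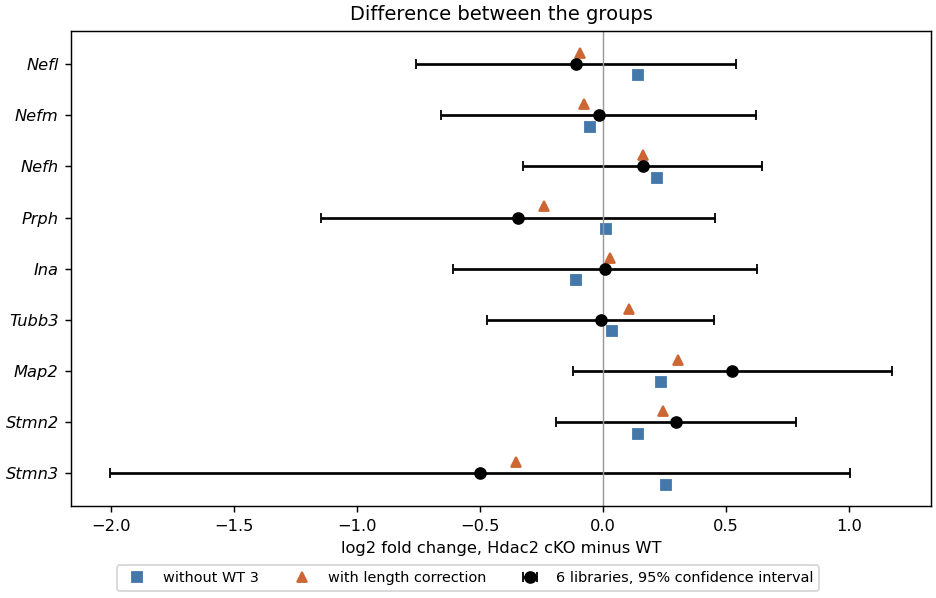
Log2 fold change of each cytoskeleton gene, Hdac2 cKO minus WT (horizontal axis); black points with bars are the fit on 6 libraries with its 95% confidence interval, blue squares the fit without WT 3 and orange triangles the fit with a correction for gene length. Every interval crosses 0, and without WT 3 the values of Nefl, Prph and Stmn3 are above 0.

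Leaving out WT 3 turned the fold changes of Nefl, Prph, Ina, Tubb3 and Stmn3, of which those of Ina and Tubb3 were near 0, and brought those of Map2 and Stmn2 nearer to 0. Some members of short exonic length were high in that library, and Map2, the longest, was low. Relative to each gene's mean over the 6 libraries, WT 3 stood at 1.76 (log2) for Stmn3, whose exons cover 1136 bases, and at 0.89 for Prph, with 1999 bases. It stood at -0.45 for Stmn2, with 5602 bases, and at -0.85 for Map2, with 16449 bases. Other members did not follow this order. Tubb3, with 1868 bases, stood at 0.10, and Ina, with 3240 bases, at -0.23. Nefl, with 3380 bases, stood at 0.56, and Nefm, with 5782 bases, at -0.062. The longest transcripts of Stmn2 and Nefm have 3413 and 3680 bases, near the 3380 of Nefl, and that of Map2 has 6258. The comparison of members by length thus depends on the length used. Over all genes tested, the median deviation in WT 3 went from 0.11 in the shortest of 5 equal length classes (median 1247 bases) to -0.23 in the longest (median 9282 bases). In WT 2 the same medians were 0.19 and -0.08, and in WT 1 they were -0.02 and 0.11. In Hdac2 cKO 1, 2 and 3 they went from -0.09 to 0.14, from 0.03 to 0.10 and from 0.06 to 0.02. With this trend removed, WT 3 stood at 1.56 for Stmn3, 0.76 for Prph, 0.60 for Nefl, 0.059 for Nefm, -0.051 for Tubb3, -0.34 for Stmn2 and -0.57 for Map2. By GC content of the longest transcript, medians of the lowest and highest of 5 classes were 0.09 and -0.06 in WT 1. They were -0.11 and 0.18 in WT 2, and -0.18 and 0.19 in WT 3. In Hdac2 cKO 1, 2 and 3 they were 0.08 and -0.05, 0.12 and -0.11, and 0.13 and -0.04. The GC content of the members ranged from 41.3% (Stmn2) to 60.8% (Prph).

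**Figure D3:**
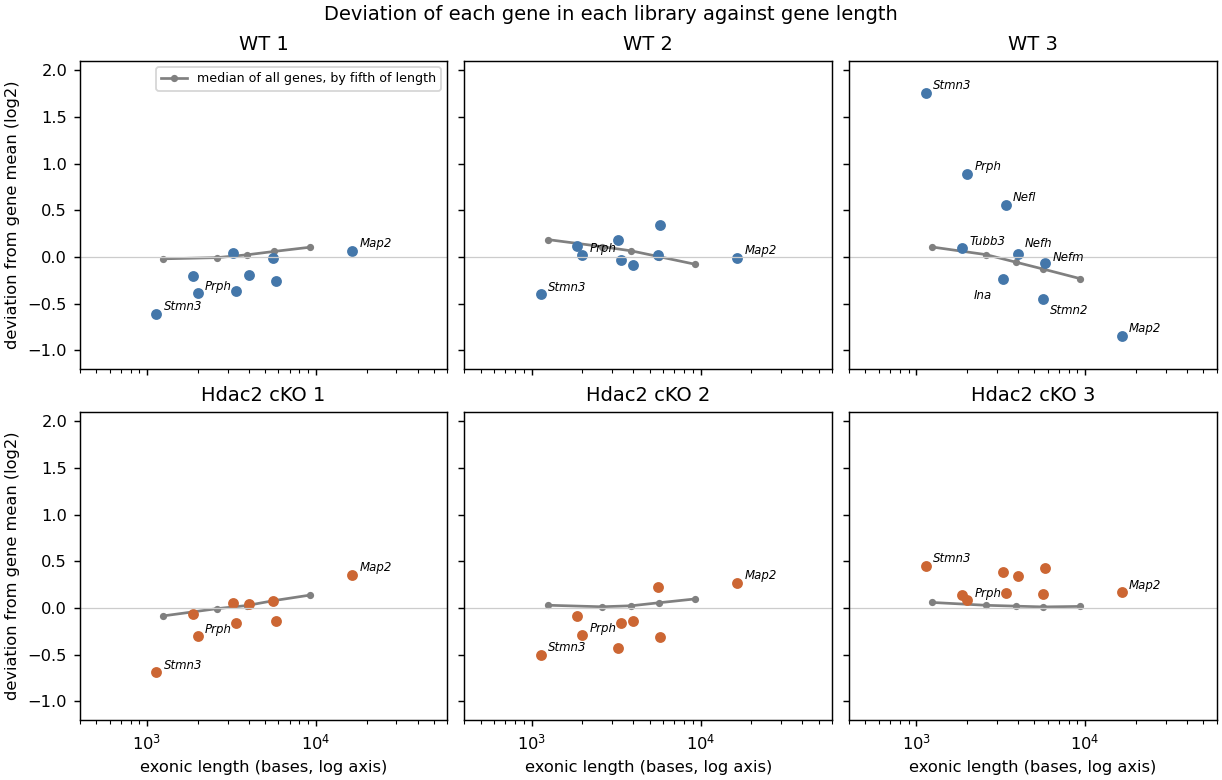
Deviation of each cytoskeleton gene from its own mean over 6 libraries (vertical axis, log2) against its exonic length in bases (horizontal log axis), one panel per library; the grey line joins the medians of all genes tested in 5 equal length classes. In WT 3 Stmn3 lies at 1.76 and Map2 at -0.85, outside the range of the grey line.

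To compare the genes with each other, reads were divided by exonic length and by the reads of the library (RPKM), and each gene was given its place among 18401 tested genes with an annotated length. Stmn3 had the highest mean, 1613 ± 1342 (SD over 6 libraries), and place 7, but was above Tubb3 in 2 of 6 libraries only, those numbered 3. Elsewhere Tubb3, at 1252 ± 93.3 and place 11, was higher. Prph followed at 1204 ± 431 (place 12) and was below Tubb3 in 5 of 6 libraries. The means of Tubb3 and Prph differed by less than the spread of Prph, which was 2048 in WT 3 and 908 to 1182 elsewhere. Nefl stood at 924 ± 196 (place 19), below Prph in 6 of 6 libraries. Its length includes the 32.8% of exonic bases shared with Nefm. How reads from these bases were counted is not known, so the order of Nefl and Prph is uncertain. Nefm, at 636 ± 135 (place 29), and Nefh, at 618 ± 72.6 (place 32), did not differ beyond their spread on this length, where Nefm was the higher in 2 of 6 libraries. Stmn2 stood at 289 ± 46.9 (place 103). Ina and Map2 were much lower, at 12.8 ± 2.43 (place 4064) and 10.5 ± 2.72 (place 4785). With the longest transcript as the length, Nefm had a mean of 999, Map2 of 27.6 and Prph of 1292. Nefm was then above Nefh in 6 of 6 libraries and below Nefl in 2 of 6, and Map2 was above Ina in 6 of 6. These orders thus depend on the length used. The mean of Prph was then above that of Tubb3, but Tubb3 was still the higher in 5 of 6 libraries.

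RefSeq promoter sequences (GRCm38.p6) were at hand for 5 of the 9 genes. Those of Tubb3 and Map2 are not shown, since in GENCODE M21 the window overlaps an exon of the gene. For the other 3 the 80 bases before the RefSeq start are printed, to set the abundant Prph and Stmn3 beside the scarce Ina. Capitals mark the TATA box core TATAA and the GC box GGGCGG, searched on both strands.
Prph, chr15:99055094-99055173, plus strand: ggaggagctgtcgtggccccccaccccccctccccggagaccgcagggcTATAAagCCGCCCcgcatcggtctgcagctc
Stmn3, chr2:181314501-181314580, minus strand: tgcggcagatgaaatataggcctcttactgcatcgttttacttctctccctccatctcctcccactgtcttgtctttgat
Ina, chr19:47014601-47014680, plus strand: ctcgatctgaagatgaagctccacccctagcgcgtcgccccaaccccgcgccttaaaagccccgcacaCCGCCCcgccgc
The core TATAA begins 31 bases before the start in Prph and is not among these letters of Stmn3 or Ina. Of 32851 promoters of the same length in the table, 8.74% hold TATAA and 22.1% hold GGGCGG. Stmn3, which had the highest mean level per length, holds neither string and has a GC content of 46.2%, against 72.5% in Prph and 68.8% in Ina. These matches describe the letters only.

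Ratios between subunits within a library do not depend on the size factor. The ratio of Nefm to Nefl, in reads per kilobase, was 0.740, 0.894 and 0.446 in the WT libraries and 0.696, 0.621 and 0.826 in the knockout libraries. The ratio of Nefh to Nefl was 0.762, 0.652 and 0.469 against 0.779, 0.688 and 0.764. Both were lowest in WT 3, and the groups overlapped. Differences of these log2 ratios were 0.09 for Nefm to Nefl and 0.27 for Nefh to Nefl. Without WT 3 they were -0.20 and 0.08. The ratio of Prph to Nefl was 1.25, 1.31 and 1.596 in WT against 1.15, 1.16 and 1.20 in Hdac2 cKO. Every knockout library thus held less peripherin relative to light neurofilament than every WT library. The difference of the log2 ratio was -0.24 (WT mean 0.46 ± 0.19, knockout mean 0.23 ± 0.035, SD, n = 3 each). The exact permutation p, two-sided, was 0.1, the lowest possible, with an adjusted p of 0.6 over the 6 ratios computed. Without WT 3 the difference was -0.13. With the trend of all genes on GC content removed from each library, a correction added after seeing the data, the difference turned to 0.10 and the groups overlapped (exact permutation p = 0.5).

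Relative to Nefl, Ina stood at 0.0184, 0.0160 and 0.00797 in WT and at 0.0160, 0.0115 and 0.0161 in Hdac2 cKO. Nefh to Nefm gave 1.03, 0.729 and 1.05 in WT and 1.119, 1.11 and 0.926 in Hdac2 cKO, with overlap. Stmn3 to Stmn2 gave 3.05, 3.46 and 21.4 in WT and 2.71, 2.80 and 5.70 in Hdac2 cKO. The highest library of each group was again number 3. The difference of this log2 ratio was -0.80, or 0.11 without WT 3. For Ina to Nefl it was 0.12, or -0.25 without WT 3. Exact permutation tests of the 5 ratios other than Prph to Nefl gave p = 0.2 to 0.9 and adjusted p = 0.6 to 0.9. Together the 9 genes took 1.46, 1.79 and 2.26% of the assigned reads of the WT libraries and 1.58, 1.54 and 1.98% of those of the knockout libraries. The groups overlapped (exact two-sided permutation p = 0.7), and the difference of the means was -0.139 percentage points, or 0.0735 without WT 3.

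**Figure D4:**
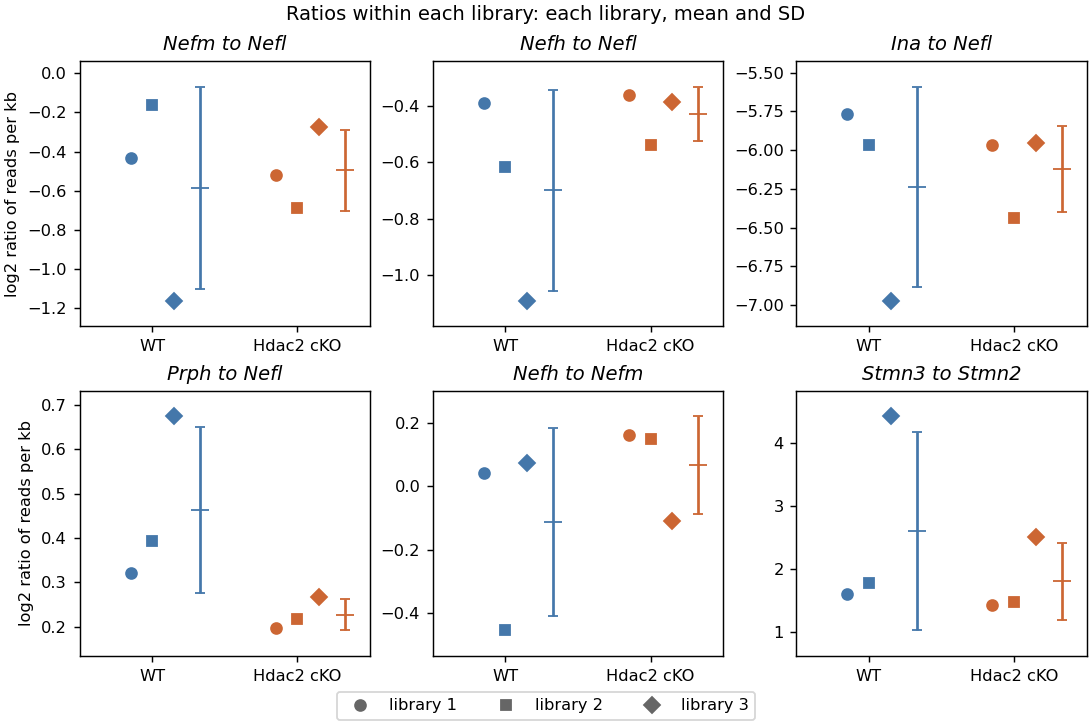
Log2 ratio of reads per kilobase between pairs of cytoskeleton genes within each library (vertical axes, one scale per pair); symbols are single libraries, and the dash with its bar is the mean and SD of 3 libraries. The ratio of Prph to Nefl is lower in every knockout library than in every WT library, and Stmn3 to Stmn2 is highest in WT 3, at 4.42.

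The members did not vary as 1 block across libraries. The likeness of 2 genes was measured as the root-mean-square difference of their log2 values over the 6 libraries after centring each gene. Nefl and Prph differed by 0.16, Nefh and Tubb3 by 0.13, Nefm and Ina by 0.18, and Map2 and Stmn2 by 0.20. Stmn3 had no near member, at 0.47 from Prph and 1.24 from Map2. Among 13031 other genes with a mean of at least 100 normalised read counts, many were closer. Prph was only at place 619 for Nefl, Tubb3 at place 273 for Nefh, and Stmn2 at place 1107 for Map2. The 3 closest genes to Nefl were Tmem14a, Manba and Twf2, and those to Nefh were Kif2a, Zdhhc14 and 4833420G17Rik. Nefm was closest to Dhx37, Ccdc136 and Dnajc7, and Ina to Nelfa, Sema4b and Unc5a. Prph was closest to Washc1, 1700037H04Rik and Rbm12, and Tubb3 to Opa3, Flot2 and Csk. Map2 was closest to Msn, 1810030O07Rik and Lrch1, Stmn2 to Orc4, Sumf1 and Uhmk1, and Stmn3 to Tmprss5, Hnrnpm and Shld1. All of these lay at 0.016 to 0.099, and with 6 libraries such closeness is a description only.

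By limma, 0 genes passed in each of the lists of related genes and cell type markers. DESeq2 called 4 genes over all these lists, each lower in the knockout: Hdac2, the Schwann cell marker Mag and the muscle markers Myh7 and Tcap. Over all genes it called 24 of 18538, or 0.129%. Both other stathmins were lower in the knockout. Stmn4 had WT values of 404, 533 and 514 and knockout values of 258, 348 and 304. The groups were separate, at a fitted log2 difference of -0.67 (SE 0.25, limma adjusted p = 0.927). Stmn1 had WT values of 9147, 11374 and 29429.8 and knockout values of 8057, 9059.9 and 9268, so that WT 3 was the highest here as for Stmn3. The fitted log2 difference was -0.73 (SE 0.42, limma adjusted p = 0.927).

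Of 13 other tubulins tested, 9 were higher and 4 lower, and their median log2 difference was 0.24, or -0.10 without WT 3. Tuba1c had 0.73 (SE 0.34) and Tuba1b -0.43 (SE 0.38), and reads of these near-identical α-tubulin genes may be split between them. Other microtubule-associated proteins, 27 tested, had 17 higher and 10 lower, with a median of 0.09, or 0.046 without WT 3, and none without overlap. Camsap2, which caps microtubule minus ends, had 0.62 (SE 0.32) and Map1s -0.48 (SE 0.36). Among 17 enzymes that modify or sever tubulin, 10 were higher and 7 lower, with a median of 0.13, or 0.029 without WT 3. Katnal1, a severing enzyme, and Ttl, tubulin tyrosine ligase, were higher without overlap, at log2 fold changes of 0.41 (SE 0.22) and 0.29 (SE 0.19).

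Axonal transport motors, 21 tested, had 15 higher and 6 lower, and a median log2 difference of 0.18, or 0.06 without WT 3. Kif1b, a kinesin, had 0.24 (SE 0.18) without overlap, and Dynll2, a dynein light chain, -0.56 (SE 0.30). The spectrin and actin skeleton, 13 tested, had 12 higher and 1 lower, a median of 0.15 that was 0.05 without WT 3, and no gene without overlap. Ank2, an ankyrin that links spectrin to the membrane, had 0.53 (SE 0.31). Kinases, phosphatases and turnover factors of neurofilaments, 16 tested, had 9 higher and 7 lower and a median of 0.05, or -0.080 without WT 3. Mapk3, the kinase ERK1, had -0.26 (SE 0.20) and Gsk3b 0.25 (SE 0.18), both without overlap. Other intermediate filaments and linkers, 11 of 12 tested, had 6 higher and 5 lower and a median of 0.07, or 0.016 without WT 3. Nes, the progenitor filament nestin, had -0.58 (SE 0.26) and Gfap, the filament of glia, 0.53 (SE 0.36), each without overlap. REST, a repressor of neuronal genes that recruits HDAC1 and HDAC2, and its partners had a median of -0.05 over 9 genes, Hdac2 included. Rcor2, a corepressor of that complex, had -1.06 (SE 0.45, limma adjusted p = 0.927), lower without overlap.

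Among pan-neuronal markers outside the cytoskeleton, 7 of 12 were higher, 4 of them without overlap, beside 4.63% of all genes tested in that direction. The median log2 difference was 0.20, or 0.11 without WT 3. Elavl2, an RNA-binding protein of neurons, and Syt1, a calcium sensor of synaptic vesicles, were higher without overlap, at 0.40 (SE 0.21) and 0.36 (SE 0.19). Avil, the gene of advillin whose promoter drives Cre, was the 1 marker lower without overlap, at -0.68 (SE 0.21, limma adjusted p = 0.927). Markers of large-diameter neurons had 7 of 13 higher and a median of 0.03, or 0.0069 without WT 3. Peptidergic nociceptor markers had a median of 0.19 over 6 genes, or 0.36 without WT 3, and non-peptidergic ones of 0.41 over 7, or 0.22 without WT 3. The 4 matched markers of C-low-threshold mechanoreceptors had a median of 0.0078, or -0.037 without WT 3.

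Among other cells, the medians of satellite glia markers were -0.020 over 6 genes and -0.11 without WT 3. For central glia they were 0.0034 over 4 genes and 0.25 without WT 3. For macrophages they were 0.13 over 6 genes and -0.26 without WT 3. Endothelial and fibroblast markers had -0.16 over 7 genes and -0.41 without WT 3, and erythroid markers 0.61 over 5 and -0.19 without WT 3. The 8 Schwann cell markers were all lower, at a median of -0.86, or -0.77 without WT 3, and so were the 8 tested muscle markers, at -4.05, or -4.48 without WT 3. Sympathetic neuron markers summed to 165 normalised read counts in WT 3 and to 1.97 to 21.2 elsewhere, and none reached the filter. Nerve injury genes had a median of 0.31 over 6 genes, or 0.44 without WT 3.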

How the data were processed

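The table's 6 columns were matched by name to the titles, which give group and replicate; WT 1 and WT 3 are named there by the letter w and their number. In the deposited signal values, each library's reads carry a single size factor: 100% were whole multiples, within 0.01, of the column's smallest value above 0. The submitters' processing notes name HISAT2, SAMtools, featureCounts, DESeq2 and the build mm10. The sources used here give no software version, annotation or strand setting. Symbols, coordinates and lengths came from GENCODE M21 (GRCm38, the assembly of mm10), which matched 54495 of 54532 identifiers.

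The main test was limma 3.58.1 (R 4.3.3) with trend and robust options on the log2 of value plus 1; a gene needed 10 or more in 3 libraries. All 9 members passed this filter. Two-sided p-values got a Benjamini-Hochberg adjustment over all genes tested, and the threshold was 0.05. The added 1 shrinks fold changes of low genes. The alternatives were DESeq2 1.42.0 and edgeR 4.0.16 on recovered reads, other scalings, pseudocounts and filters, the replicate block, length and GC corrections (a lowess trend per library), array weights, a term for sex (by Y-linked genes), and leaving out libraries. The main test was also run on simulated data with changes of known size and an assumed spread between libraries. It left most of these changes uncalled. The members and the 25 other gene lists were chosen with earlier results of these data known. Named genes were the members and, in each list, up to 2 genes with the smallest p in each direction, of which the text gives a part, and the 3 genes closest to each member.

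Deviations from the group means correlated by 0.40, 0.15 and 0.42 between libraries numbered 1, 2 and 3, all over 0.1, so equal numbers were treated as pairs, which no label states. WT 1 and Hdac2 cKO 2 correlated by 0.34, and WT 3 and Hdac2 cKO 3 differed in Y-linked genes (5698 against 0), so this pairing is uncertain.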

Additional observations from a re-analysis of the deposited data

How the results depend on the processing

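In 23 other settings, each run on the 9 genes, 207 fold changes were computed; 182 kept their direction, 25 turned, and 0 passed an adjusted p of 0.05. Nefh, Map2 and Stmn2 kept their direction in all 23. Some of these settings could not move a limma fold change. Since each number occurs once in each group, the replicate block leaves the fold change as it was (0.53 for Map2). The other filters on low values do not enter it either. The 182 and the 25 include such repeats. Pairing by the block changed no call among the 9 genes. Settings turned these values. Without both libraries numbered 3, Nefl was 0.037 and Ina -0.30. Nefm was 0.14 with GC correction, also with the block. Ina was -0.015 with TMM scaling, -0.35 with array weights and -0.11 with a sex term. Tubb3 was 0.11 with length correction and 0.16 with GC correction, each also with the block, and 0.021 with a sex term. Array weights gave Nefm -0.46 with the smallest adjusted p of any member in any setting, 0.102. The cause was not tested.

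Leaving out each library in turn gave log2 fold changes of -0.32 to 0.14 for Nefl, -0.23 to 0.15 for Nefm, -0.63 to 0.013 for Prph, -0.18 to 0.22 for Ina, -0.11 to 0.049 for Tubb3 and -0.93 to 0.26 for Stmn3. Differences of log2 ratios ranged from -0.20 to 0.30 for Nefm to Nefl, from -0.25 to 0.35 for Ina to Nefl and from -1.29 to 0.11 for Stmn3 to Stmn2. That of Prph to Nefl ranged from -0.31 to -0.13. Over same-numbered pairs with the block it was -0.24, a value that the pairing could not move. With GC correction, an alternative chosen after seeing the data, it was 0.10. The difference in the share of reads ranged from -0.33 to 0.0735 percentage points for the 9 genes and from -0.0926 to 0.0571 for the neurofilament triplet. Over all genes limma called 0 (341 at an unadjusted p under 0.05), DESeq2 24, DESeq2 with the block 60, limma with array weights 567 and limma 5 without both libraries numbered 3, none of them one of the 9 genes.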

Other observations

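Beside Stmn3, 10 other genes of the lists were more than 2-fold above all other libraries in WT 3, among them the kinesin genes Kif5c and Klc1 and the genes Map1s, Stmn1 and Pvalb. More than 2-fold below all others in WT 3 were 19, among them the cytoskeleton genes Dst, Map1a, Map6, Clasp1, Mapre2, Tuba8, Tubb4a, Tubb4b and Tubg1. Pvalb, parvalbumin of proprioceptive neurons, stood at 24563 normalised read counts in WT 3 and at 2960.3 to 6217 in the other 5 libraries. These genes were named after their values were seen.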
